A study of Homo sapiens with 8 samples.

Results

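Toll-like receptors are membrane proteins with which myeloid cells sense microbes, and this account follows 8 of their genes (TLR1, TLR2, TLR4, TLR5, TLR6, TLR7, TLR8 and TLR9) with CD14, which hands bacterial lipopolysaccharide to TLR4, and MYD88, the adaptor that carries the signal of these receptors. The members were the rows of the deposited table that bear these 10 names, out of 26830 gene symbols, and all 10 were found. Of these, 9 reached 1 TPM (a length-scaled share of all transcripts in a library) in at least 2 libraries and were tested, and TLR7 did not. TLR1, TLR6, TLR8 and CD14 passed that filter only with MOLM-13 libraries (TLR1 reached 1 TPM in 1 NOMO-1 library, the other 3 in none) and TLR5 only through NOMO-1 libraries, so a difference between the lines was built into their being tested.

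Human acute myeloid leukaemia cells of the lines NOMO-1 and MOLM-13 carried a lentiviral short hairpin RNA, either shNS, the control hairpin, or a hairpin against ALKBH5, the enzyme that removes the m6A mark from RNA. Each hairpin was put into each line, and each of the resulting 4 groups held 2 poly(A) RNA libraries (n = 2, or 1 in a group from which a library is left out). All cells, controls included, went through virus infection and puromycin selection, for 4 days in the series text and for 1 week at 1 µg/ml in the sample protocols. The knockdown rests on the hairpin numbered 1 alone, each line is a cultured tumour line, and the sample protocols also mention a virus against FTO and drug treatments that no sample label lists. No label ties the libraries to separate cultures, and the p-values below therefore speak of library-to-library spread alone, which may be technical.

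On the cell surface, TLR2 pairs with TLR1 or TLR6 to bind bacterial lipopeptides, TLR4 with its partner LY96 and with CD14 binds lipopolysaccharide, and TLR5 binds flagellin. TLR7 and TLR8, which sense single-stranded RNA, and TLR9, which senses unmethylated CpG DNA, signal from endosomes after UNC93B1 has brought them there. Ligand-bound receptors recruit MYD88, which assembles IRAK kinases and TRAF6 and so turns on NF-kB, and CD14, TLR2 and TLR4 are known as monocyte genes.

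ALKBH5 was lower in all knockdown libraries, as a check of the labels. Its level was 70.4 and 71.8 TPM in NOMO-1 controls against 15.1 and 14.2 TPM with the hairpin, and 45.7 and 45.8 TPM in MOLM-13 controls against 9.45 and 7.35 TPM. Of the 8 myeloid markers, 8 were tested, and their summed level was 953 to 989 TPM in NOMO-1 shNS, 1930 to 1950 TPM in NOMO-1 shALKBH5, 9650 to 10180 TPM in MOLM-13 shNS and 12890 to 20220 TPM in MOLM-13 shALKBH5. That sum is mostly LYZ, the lysozyme gene, in MOLM-13 and the larger part LYZ in NOMO-1 shALKBH5, at 463 and 500 TPM against 1532 and 1507 TPM in NOMO-1 and 9126 and 8493 TPM against 19263 and 12121 TPM in MOLM-13. By limma, 2 of the 8 rose in NOMO-1 (CSF1R and LYZ) and 3 fell (CD33, CEBPA and FCGR1A), and 2 rose in MOLM-13 (CD33 and LYZ) and 2 fell (ITGAM and MPO). Of all genes tested, 28.6% rose and 15.0% fell in NOMO-1, and 10.6% rose and 31.2% fell in MOLM-13. These shares stand beside the counts of the monocyte and macrophage markers below too. MPO, a granule enzyme gene, was at most 0.48 TPM in NOMO-1 and fell in MOLM-13 from 384 and 456.5 TPM to 19.3 and 16.4 TPM (log2 fold change -4.48, adjusted p = 0.000106). Of 11 markers of maturing monocytes and macrophages, 8 were tested. In NOMO-1, 4 rose (CD68, FCGR2A, S100A8 and S100A9) and 1 fell (MERTK), with sums of 739 to 763 TPM against 1856 to 2005 TPM, and in MOLM-13, 3 rose (CD68, FCGR2A and CCR2) and 1 fell (S100A9), with sums of 2915 to 2957 TPM against 2002 to 2685 TPM. The part of these markers in the members' changes was not tested. Epithelial markers summed to at most 0.13 TPM in every library. Of the 6 erythroid markers, HBB was at 14.0 TPM in MOLM-13 shALKBH5 replicate 3 and listed at 0 in every other library. EPOR, by limma, rose in NOMO-1 (log2 fold change 0.74, adjusted p = 0.00362) and was not called in MOLM-13. The other erythroid markers were at most 0.28 TPM. The level of a gene in such bulk libraries cannot tell fewer expressing cells from less RNA per cell.

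The MOLM-13 knockdown libraries stood apart from each other. Across the 8804 genes that averaged 10 TPM or more, paired libraries of a group differed on the log2 scale with an SD of 0.53 in this group, against 0.15 and 0.18 for shNS and shALKBH5 in NOMO-1 and 0.13 for shNS in MOLM-13. In its replicate 1, 27 of 29 tested interferon-stimulated genes stood at least 1 log2(TPM + 1) unit above the mean of the MOLM-13 controls, where 6.1% of all genes tested did (and 8.8% stood as far below). In replicate 3, none of the 29 did, and 9 of 29 stood at least 1 unit below, where 20.6% of all genes did (and 3.24% stood as far above). The members' changes in MOLM-13 are therefore given with and without each of these libraries, and those of the other pathway genes named where a call was lost or a value or count moved by more than 1.5 times. A fit with a library left out has 1 library in the affected group, so its p-values and counts hold no spread within that group.

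The control libraries of the lines held different sets of receptors. Among the receptors, TLR4 led in NOMO-1, and TLR2 led in MOLM-13, followed by TLR1 and then by TLR8 and TLR6. With limma on log2(TPM + 1), TLR4 and TLR5 were higher in control NOMO-1 and TLR1, TLR2, TLR6 and TLR8 were lower, which makes 6 of 9 members tested, where 59.8% of all 14302 genes tested differed (40.6% higher and 19.2% lower in NOMO-1), and where the control libraries of 89.5% did not overlap (57.9% higher and 31.6% lower). The share of members that differed is close to that background. TLR1, TLR5, TLR6 and TLR8 also passed the filter only through the line where they were higher. What follows therefore describes which receptors each line held.

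**Figure D1:**
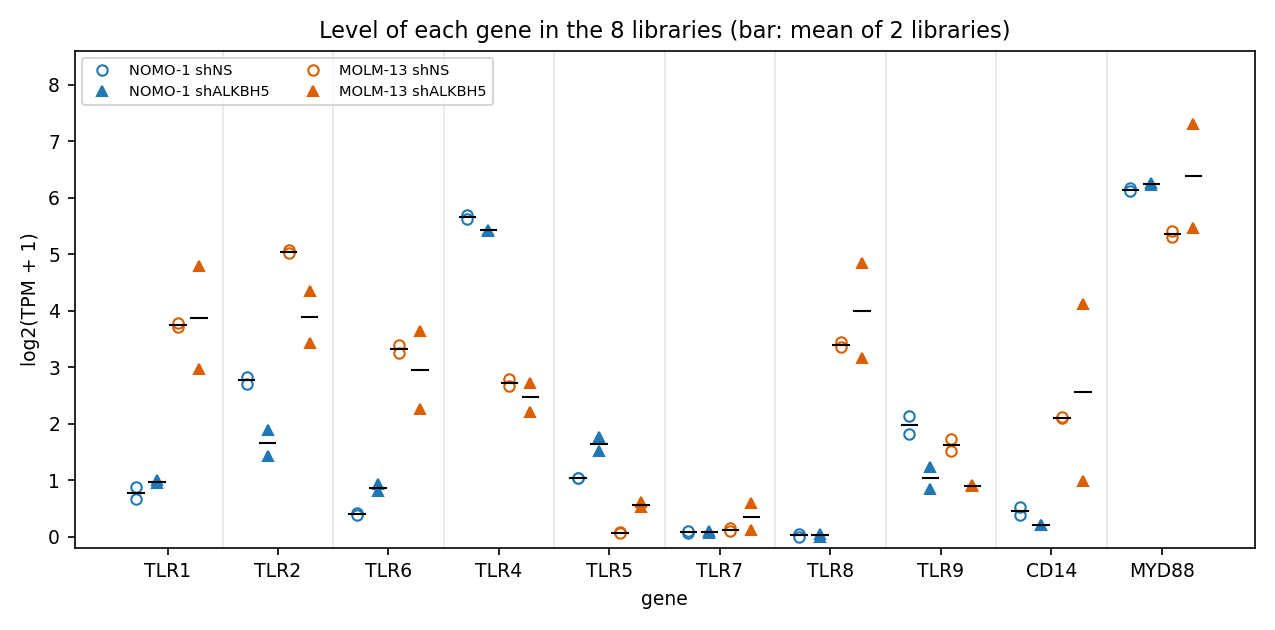
Level of each member in the 8 libraries, on a log2(TPM + 1) axis. Open circles are shNS and filled triangles shALKBH5 libraries, blue for NOMO-1 and orange for MOLM-13, and each short black bar is the mean of 2 libraries. TLR4 is high in NOMO-1, TLR1, TLR2, TLR6 and TLR8 are high in MOLM-13, and the MOLM-13 shALKBH5 triangles lie far apart for TLR1, TLR8, CD14 and MYD88.

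TLR4 (chromosome 9, 117704175 to 117724730, GRCh38), the lipopolysaccharide receptor, stood at 50.9 and 48.0 TPM in NOMO-1 shNS and at 5.9 and 5.31 TPM in MOLM-13 shNS. The groups were far apart, with a log2 difference of 2.93 (SE 0.18, adjusted p = 2.77e-05) and an 8.82-fold higher mean in NOMO-1. CD14, the protein that passes lipopolysaccharide on to TLR4, ran the other way at 0.3 and 0.44 TPM in NOMO-1 shNS and 3.28 and 3.31 TPM in MOLM-13 shNS. These control groups did not overlap, but the difference did not pass the test (log2 difference -1.65, SE 0.89, adjusted p = 0.154). The spread that limma pooled for CD14 came mostly from the MOLM-13 knockdown libraries, and without replicate 1 or replicate 3 of these the same difference of -1.65 had an adjusted p of 3.15e-05 or 2.71e-05.

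TLR2, the shared partner of lipopeptide recognition, stood at 6.07 and 5.52 TPM in NOMO-1 shNS and at 32.5 and 31.4 TPM in MOLM-13 shNS. That is a 5.51-fold higher mean in MOLM-13 (log2 difference, NOMO-1 minus MOLM-13, -2.28, SE 0.31, adjusted p = 0.000916). Its partner TLR1 was at 0.59 and 0.83 TPM against 12.1 and 12.7 TPM, a log2 difference of -2.97 (SE 0.53, adjusted p = 0.00319). The other partner, TLR6, was at 0.34 and 0.3 TPM against 9.43 and 8.54 TPM, a log2 difference of -2.92 (SE 0.40, adjusted p = 0.00107). All 3 lipopeptide receptors were thus higher in MOLM-13, without overlap of the libraries. On the reverse strand of chromosome 4, the annotated span of TLR6 (38823715 to 38856817) lies within that of TLR1 (38790677 to 38856817). The genes share 57 exon bases. They have 249 stretches of 50 bases in common, which is 6.94% of those of TLR1 and 4.1% of those of TLR6. A small part of their reads could thus be assigned to either gene.

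TLR8, an endosomal RNA sensor on chromosome X (12906620 to 12923169), was a MOLM-13 transcript, at 9.86 and 9.25 TPM in the controls. In NOMO-1 it was listed at 0 in 1 shNS and 1 shALKBH5 library and at 0.03 TPM in the others, so no fold is given (log2(TPM + 1) difference -3.38, SE 0.49, adjusted p = 0.00126). The antisense gene TLR8-AS1, which shares no exon base with TLR8 in GENCODE, was at most 0.11 TPM in any library. TLR7, the neighbouring RNA sensor, reached 0.5 TPM in MOLM-13 shALKBH5 replicate 1 and stayed between 0.04 and 0.11 TPM in the other 7 libraries. Of the remaining receptors, TLR3 was listed at 0 in 7 libraries and at 0.03 TPM in MOLM-13 shALKBH5 replicate 1, and TLR10 was listed at 0 in NOMO-1 and ran from 0.08 to 0.18 TPM in MOLM-13.

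TLR5, the flagellin receptor, was low in both lines, at 1.05 and 1.06 TPM in NOMO-1 shNS and 0.06 and 0.04 TPM in MOLM-13 shNS (log2 difference 0.97, SE 0.12, adjusted p = 0.000764). TLR9 was at 3.39 and 2.52 TPM against 2.3 and 1.85 TPM, a difference that did not pass the test (log2 difference 0.36, SE 0.18, adjusted p = 0.132, 95% interval -0.08 to 0.79). GENCODE places a second protein-coding gene, which has no row in the table, over 86.3% of the exon bases of TLR9. Reads within that shared part of TLR9 cannot be told apart from reads of that gene. MYD88 was the most abundant member in every library but was not called between the controls, at 70.7 and 68.5 TPM in NOMO-1 against 38.4 and 41.5 TPM in MOLM-13 (log2 difference 0.79, SE 0.53, adjusted p = 0.24). Without replicate 1 or replicate 3 of MOLM-13 shALKBH5, the same MYD88 difference had an adjusted p of 4.77e-05 or 4.61e-05.

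Shares were counted of the summed TPM of the 8 receptors together with TLR3 and TLR10. TLR4 made up 81.5% and 82.3% in NOMO-1 shNS, against 8.15% and 7.67% in MOLM-13 shNS. TLR1, TLR2 and TLR6 together made up 74.6% and 75.9% in MOLM-13 shNS, against 11.2% and 11.4% in NOMO-1 shNS. The endosomal receptors TLR7, TLR8 and TLR9 together made up 16.95% and 16.1% in MOLM-13 shNS. There TLR8 alone was 13.6% and 13.4% of the sum, and TLR9 3.18% and 2.67%. In NOMO-1 shNS the endosomal receptors made up 5.56% and 4.44%, nearly all of it TLR9. The summed receptor level itself was 62.5 and 58.3 TPM in NOMO-1 and 72.4 and 69.3 TPM in MOLM-13, with no test made.

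**Figure D2:**
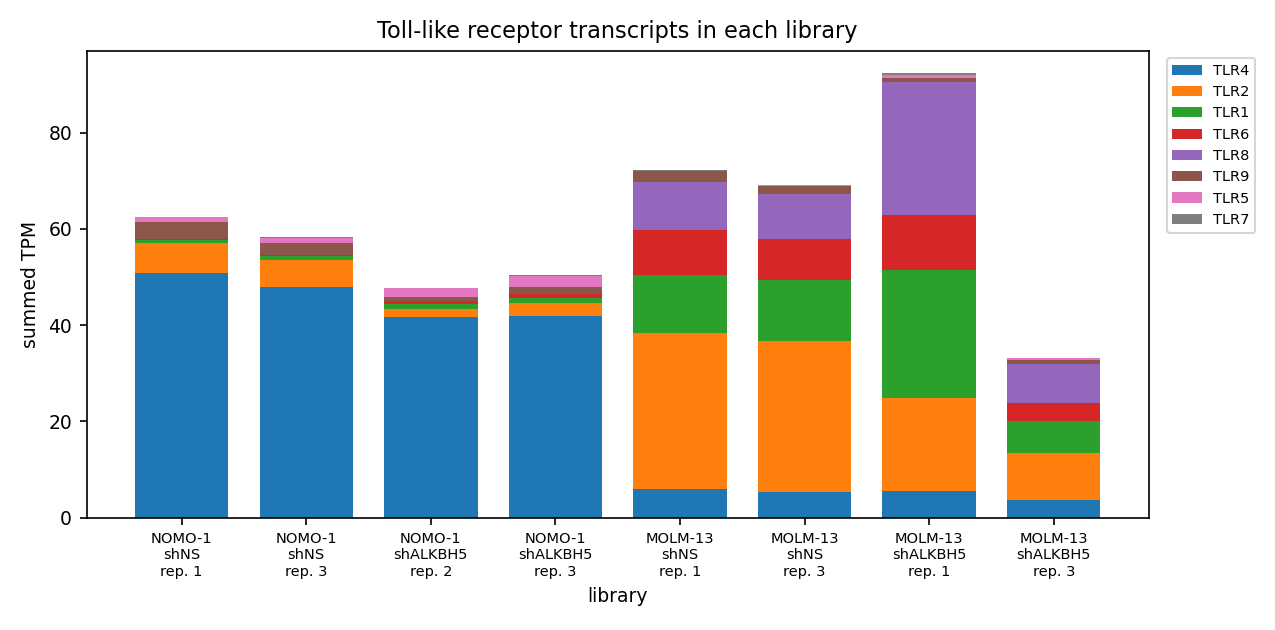
Summed TPM of the 8 receptors in each library, as stacked bars that start at 0. TLR4 fills most of each NOMO-1 bar and TLR2, TLR1, TLR6 and TLR8 most of each MOLM-13 bar. The MOLM-13 shALKBH5 bars lie on either side of the controls. With TLR3 and TLR10 counted in, which the bars leave out, their sums were 92.5 TPM in replicate 1 and 33.3 TPM in replicate 3.

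The order of the members within a line followed from these levels. In NOMO-1 shNS it ran from MYD88 through TLR4, TLR2, TLR9, TLR5, TLR1, CD14, TLR6 and TLR7 to TLR8, and only CD14 and TLR6 overlapped as neighbours. In MOLM-13 shNS it ran from MYD88 through TLR2, TLR1, TLR8, TLR6, TLR4, CD14, TLR9 and TLR7 to TLR5, and only TLR8 and TLR6 overlapped. In MOLM-13 shALKBH5 each neighbouring pair in the run TLR8, TLR1, TLR2, CD14, TLR6 and TLR4 overlapped, so the neighbours among these 6 could not be ranked there, nor could TLR5 and TLR7.

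After ALKBH5 knockdown, TLR2 and TLR9 fell and TLR5 rose in each line. These were the members that passed the test, 3 of 9 in NOMO-1 (1 higher and 2 lower) and the same 3 in MOLM-13 (1 higher and 2 lower). Of all genes tested, 43.6% passed in NOMO-1 (28.6% higher and 15.0% lower) and 41.8% in MOLM-13 (10.6% higher and 31.2% lower), so the count of members that passed is not above that background. Lower in both lines were 2 of 9 members and 10.4% of all genes, and higher in both 1 of 9 and 6.33%. The median log2 fold change of the members was 0.0 in NOMO-1, beside 0.16 over all genes, and 0.13 in MOLM-13, beside -0.18. The NOMO-1 median is the value of TLR8, which was at most 0.03 TPM there. TLR1, TLR6 and CD14, at most 1.0 TPM in NOMO-1, also enter its count and median.

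**Figure D3:**
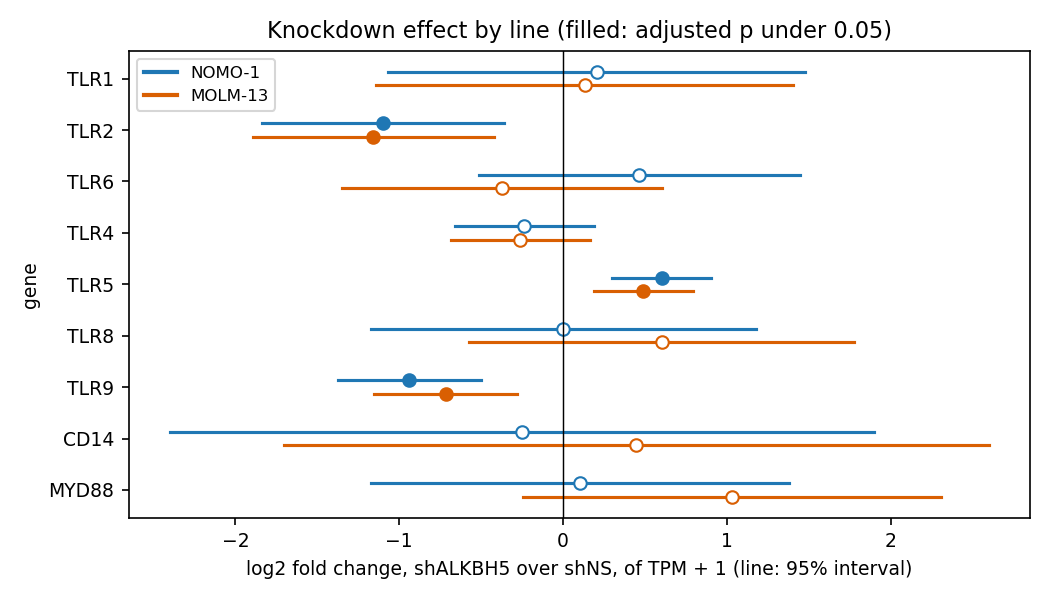
Log2 fold change of TPM + 1, shALKBH5 over shNS, of the 9 members tested, with the 95% interval from limma, blue for NOMO-1 and orange for MOLM-13. Filled points passed an adjusted p of 0.05. TLR2 and TLR9 lie left of 0 and TLR5 right of it in both lines, and the intervals of CD14, MYD88, TLR1 and TLR8 are wide.

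In NOMO-1, TLR2 measured 6.07 and 5.52 TPM with shNS against 1.7 and 2.71 TPM with shALKBH5. The libraries did not overlap, as for 82.6% of all genes, and the mean fell 2.63-fold (log2 fold change -1.10, SE 0.31, adjusted p = 0.0282). In MOLM-13 it measured 32.5 and 31.4 TPM with shNS against 19.3 and 9.74 TPM with shALKBH5, again without overlap, as for 67.5% of all genes (46.2% lower), and fell 2.2-fold (log2 fold change -1.16, SE 0.31, adjusted p = 0.0247). The size in MOLM-13 depended on the library, at -0.70 without replicate 3 and -1.62 without replicate 1. The call was fragile in both lines. In NOMO-1 it was lost in 7 of 16 alternatives, with an adjusted p of up to 0.158 when NOMO-1 shALKBH5 replicate 2 was left out (0.128 and 0.101 without shNS replicate 1 and 3, 0.0568 without shALKBH5 replicate 3). In MOLM-13 it was lost in 6 of 17, with 0.118 when that line was fitted alone and 0.114 and 0.101 without shNS replicate 1 and 3.

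TLR9, the DNA sensor, fell from 3.39 and 2.52 TPM to 0.8 and 1.34 TPM in NOMO-1 (log2 fold change -0.94, SE 0.18, adjusted p = 0.00759). In MOLM-13 it fell from 2.3 and 1.85 TPM to 0.85 and 0.88 TPM (log2 fold change -0.72, SE 0.18, adjusted p = 0.0211). The mean was 2.76-fold lower in NOMO-1 and 2.4-fold lower in MOLM-13, and unlike TLR2 the MOLM-13 knockdown libraries were close together, with -0.71 and -0.73 when either was left out. Leaving out NOMO-1 shNS replicate 1 brought the adjusted p in NOMO-1 to 0.0506, and leaving out MOLM-13 shNS replicate 1 or 3 brought that in MOLM-13 to 0.124 or 0.0631. TLR9 is best known from plasmacytoid dendritic cells and B cells. Of 4 plasmacytoid dendritic cell markers in the table, CLEC4C was at most 0.55 TPM and their sum was 9.64 to 10.7 TPM in NOMO-1 shNS, 6.57 to 8.13 TPM in NOMO-1 shALKBH5, 56.4 to 60.7 TPM in MOLM-13 shNS and 21.7 to 36.3 TPM in MOLM-13 shALKBH5, nearly all IL3RA in MOLM-13. TCF4, a transcription factor of these cells, fell in NOMO-1 from 7.33 and 6.86 to 0.5 and 1.08 TPM (log2 fold change -2.20, adjusted p = 0.000447) and in MOLM-13, where it was under 1 TPM throughout, by 0.61 (adjusted p = 0.0305). IL3RA, the interleukin 3 receptor chain, rose in NOMO-1 by 0.91 (adjusted p = 0.0316), and in MOLM-13 it fell by 1.04 (adjusted p = 0.021). The 8 lymphoid markers summed to 8.42 to 8.89 and 5.48 to 5.7 TPM in NOMO-1 shNS and shALKBH5 and to 7.77 to 8.05 and 4.46 to 7.11 TPM in MOLM-13, with MS4A1, the B cell marker CD20, listed at 0 in every library. The part of these genes in the fall of TLR9 was not tested.

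TLR5 rose from 1.05 and 1.06 TPM to 1.86 and 2.4 TPM in NOMO-1 (log2 fold change 0.60, SE 0.12, adjusted p = 0.0098). In MOLM-13 it rose from 0.06 and 0.04 TPM to 0.52 and 0.43 TPM (log2 fold change 0.49, SE 0.12, adjusted p = 0.0217), which stayed below 1 TPM in every library. The values doubled in NOMO-1 by group mean (2.02-fold), and in MOLM-13 the control level is too low for a fold to be read. Quantile scaling took the NOMO-1 change to 0.28 (adjusted p = 0.0974), and leaving out MOLM-13 shNS replicate 1 or 3 took the adjusted p in MOLM-13 to 0.0961 or 0.106. Without MOLM-13 shALKBH5 replicate 1 or 3 the TLR5 change was 0.45 or 0.53.

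TLR4, the main receptor of NOMO-1, measured 50.9 and 48.0 TPM with shNS against 41.6 and 42.0 TPM with shALKBH5. The libraries did not overlap, but the log2 fold change of -0.24 (SE 0.18, 95% interval -0.66 to 0.19) did not pass the test (adjusted p = 0.324). It passed in 5 of 16 alternatives, among them NOMO-1 fitted alone (-0.24, adjusted p = 0.0168) and median-of-ratios scaling (-0.45, adjusted p = 0.0112), and without MOLM-13 shALKBH5 replicate 1 or 3 (adjusted p = 0.0206 or 0.0205), which narrows the pooled spread. In MOLM-13 it was at 5.9 and 5.31 TPM against 5.6 and 3.6 TPM (log2 fold change -0.26, 95% interval -0.69 to 0.17, adjusted p = 0.282). Without replicate 1 the change was -0.52 and without replicate 3 it was 0.0003.

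TLR6 in NOMO-1 stayed under 1 TPM, at 0.34 and 0.3 TPM with shNS against 0.75 and 0.9 TPM with shALKBH5 (log2 fold change 0.47, 95% interval -0.51 to 1.45, adjusted p = 0.398). NOMO-1 fitted alone gave it an adjusted p of 0.00755, and leaving out MOLM-13 shALKBH5 replicate 1 or 3 gave 0.0066 or 0.00624. TLR1 in NOMO-1, at 0.59 and 0.83 against 1.0 and 0.93 TPM, had a log2 fold change of 0.20 (adjusted p = 0.797) whose sign turned with quantile scaling (-0.08). CD14 in NOMO-1 measured 0.3 and 0.44 TPM with shNS and 0.15 TPM in each shALKBH5 library (log2 fold change -0.25, adjusted p = 0.861, and 0.0392 with that line alone). MYD88 in NOMO-1, at 70.7 and 68.5 against 73.9 and 75.7 TPM, had a log2 fold change of 0.10 (95% interval -1.17 to 1.39, adjusted p = 0.91), whose sign turned with median-of-ratios scaling (-0.11) and with quantile scaling (-0.0036).

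In MOLM-13, the knockdown libraries disagreed on several members that the test did not call. Relative to the mean of the 2 controls on the log2(TPM + 1) scale, replicate 1 stood higher by 2.01 for CD14, 1.95 for MYD88, 1.44 for TLR8 and 1.04 for TLR1, while replicate 3 stood at -1.12, 0.11, -0.24 and -0.78. Since 6.1% of all genes stood at least 1 unit above the controls in replicate 1 and 20.6% at least 1 unit below in replicate 3, these 4 members fall in the upper tail of the former library, and CD14, with TLR2 and TLR6, in the broad lower tail of the latter.

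**Figure D4:**
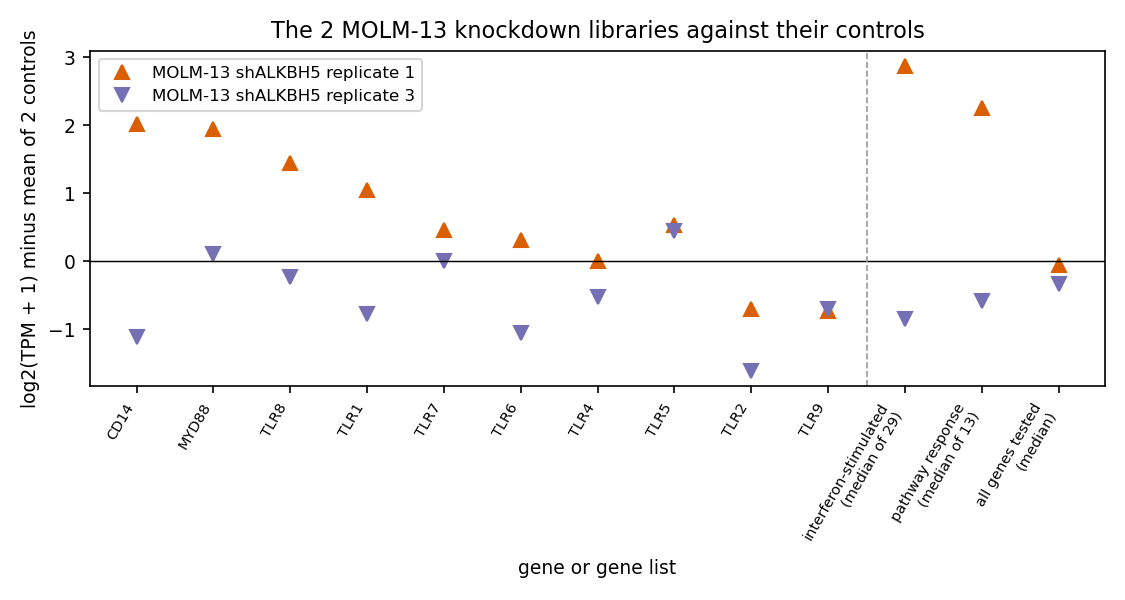
Difference of each MOLM-13 shALKBH5 library from the mean of the 2 MOLM-13 shNS libraries in log2(TPM + 1). Upward triangles are replicate 1 and downward triangles replicate 3, and right of the dashed line are medians over 29 interferon-stimulated genes, 13 response genes and all genes tested. The libraries agree for TLR5 and TLR9 and part for CD14, MYD88, TLR8 and TLR1.

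MYD88 stood at 38.4 and 41.5 TPM in MOLM-13 shNS, at 157 TPM in shALKBH5 replicate 1 and at 43.1 TPM in replicate 3. Replicate 3 was thus within 0.11 log2 units of the controls, and nearly all of the fitted change of 1.03 (SE 0.53, 95% interval -0.25 to 2.31, adjusted p = 0.166) came from replicate 1. Without replicate 3 it was 1.95 and without replicate 1 it was 0.11. With both replicates kept, it passed with median-of-ratios scaling (1.32, adjusted p = 0.042) and with quantile scaling (1.34, adjusted p = 0.0322).

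CD14 stood at 3.28 and 3.31 TPM in MOLM-13 shNS, at 16.3 TPM in shALKBH5 replicate 1 and at 0.98 TPM in replicate 3, so the knockdown libraries lay on either side of the controls (log2 fold change 0.45, adjusted p = 0.729). Leaving out replicate 1 turned the change to -1.12, and leaving out replicate 3 made it 2.01. TLR8 measured 9.86 and 9.25 TPM with shNS, then 27.7 and 7.93 TPM (log2 fold change 0.60, adjusted p = 0.366, and 1.44 without replicate 3, -0.24 without replicate 1). TLR1 measured 12.1 and 12.7 TPM with shNS, then 26.5 and 6.79 TPM (log2 fold change 0.13, adjusted p = 0.875, and 1.04 without replicate 3, -0.78 without replicate 1). TLR6 stood at 9.43 and 8.54 TPM and then at 11.4 and 3.77 TPM (log2 fold change -0.37, adjusted p = 0.503, and -1.06 without replicate 1, 0.32 without replicate 3). For none of these 4 genes do the files show which of the knockdown libraries stands for the knockdown.

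The same 2 libraries differed in interferon-stimulated genes and in genes that the pathway induces in monocytes. In replicate 1 the median of 29 interferon-stimulated genes stood 2.87 units above the controls and that of 13 response genes 2.25 units above, and in replicate 3 they stood at -0.85 and -0.59, beside -0.06 and -0.33 over all genes. IFIT1, an interferon-induced RNA-binding protein, was at 1.96 and 1.43 TPM in MOLM-13 shNS, at 70.7 TPM in replicate 1 and at 0.35 TPM in replicate 3. ISG15, an interferon-induced ubiquitin-like protein, was at 11.6 and 12.8 TPM, then 215 and 16.2 TPM. Summed over 31 interferon-stimulated genes, MOLM-13 shNS held 635 to 665 TPM and shALKBH5 3171 TPM in replicate 1 and 550 TPM in replicate 3. With limma, 0 of the 29 tested were called in MOLM-13 (1 higher at an unadjusted p under 0.05). The number called depended on which knockdown library was left out, as did the number over all genes. The part of this library's interferon genes in the values of MYD88, CD14, TLR8 and TLR1 was not tested.

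The bases before the start of MYD88 are shown as a description. They were picked after MYD88 and the interferon-stimulated genes were seen to stand high in replicate 1. Any part of a motif in that value was not tested. Interferon regulatory factors bind paired short blocks, and the IRF pair searched for (both strands of the 250 bases before each RefSeq start, GRCh38.p14) occurs in 3.02% of 35116 promoters. MYD88 alone of the 8 members with a RefSeq promoter held it, as did 13 of the 24 interferon-stimulated genes with a promoter, out of 31. In the 30-base windows below, on the plus strand, the pair is in capitals. It lies 61 to 52 bases before the RefSeq start of MYD88 (chr3:38138590-38138619), 116 to 107 before that of IFIT1 (chr10:89392497-89392526) and 113 to 104 before that of ISG15 (chr1:1013374-1013403). The MYD88 window falls after the start of the annotated span of MYD88 in GENCODE (38138478).
MYD88: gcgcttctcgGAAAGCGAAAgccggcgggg
IFIT1: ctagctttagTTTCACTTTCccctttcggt
ISG15: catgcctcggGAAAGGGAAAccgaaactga

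CD14 and TLR8 also stood high in replicate 1, and the promoters of both lacked the pair. The promoter of TLR8 is printed as an example. The 250 bases before the RefSeq start of TLR8 (chrX:12906370-12906619, plus strand, GRCh38.p14) held neither that pair nor the NF-kB motif searched for on both strands. The NF-kB motif occurs in 1.73% of promoters and in none of the 8 members'. A match is a stretch of letters and not a shown binding site, and a missing match says only that the motif is not in this window.
TLR8: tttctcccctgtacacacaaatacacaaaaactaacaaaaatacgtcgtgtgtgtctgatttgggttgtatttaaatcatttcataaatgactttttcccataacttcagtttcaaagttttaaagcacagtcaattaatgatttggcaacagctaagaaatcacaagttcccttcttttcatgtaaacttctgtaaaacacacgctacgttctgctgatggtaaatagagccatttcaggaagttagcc

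For no member was a difference between the lines in the knockdown effect detected. With limma's test of the difference, NOMO-1 minus MOLM-13, 0 of 9 members passed (0 at an unadjusted p under 0.05), where 34.6% of all genes did (29.7% higher and 4.9% lower in NOMO-1). For the members called in both lines, the difference of the log2 fold changes was 0.06 for TLR2 (95% interval -0.99 to 1.10), 0.11 for TLR5 (-0.31 to 0.54) and -0.22 for TLR9 (-0.84 to 0.40). These intervals still allow a sizeable difference, above all for TLR2. For MYD88 the difference was -0.93 (95% interval -2.73 to 0.88), and for CD14 -0.70 (-3.74 to 2.34). Without MOLM-13 shALKBH5 replicate 1, 3 members were higher in the difference (TLR1 0.98, TLR6 1.53 and CD14 0.87), and without replicate 3, 4 were lower (TLR1 -0.84, TLR8 -1.44, CD14 -2.26 and MYD88 -1.85).

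Shares of the receptor sum shifted as follows. In NOMO-1 TLR2 went from 9.72% and 9.47% of the receptor sum to 3.56% and 5.38%, and the sum itself from 62.5 and 58.3 TPM to 47.8 and 50.4 TPM. In MOLM-13 TLR2 went from 44.9% and 45.3% to 20.9% and 29.2%, and TLR8 from 13.6% and 13.4% to 29.9% and 23.8%. The shares of TLR2 and TLR8 thus moved the same way in both MOLM-13 knockdown libraries, although the sums were 92.5 and 33.3 TPM. The level of TLR8 did not, at 27.7 TPM in replicate 1 and 7.93 TPM in replicate 3 against 9.86 and 9.25 TPM in the controls. MYD88 per receptor transcript was 1.13 and 1.17 in NOMO-1 shNS and 1.55 and 1.5 in shALKBH5, and 0.53 and 0.60 in MOLM-13 shNS against 1.7 and 1.29 in shALKBH5. These ratios are descriptions without a test.

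The rest of the pathway was read from lists of genes by role. Counts are of genes past an adjusted p of 0.05 in limma. In NOMO-1 they too should be held against 28.6% higher and 15.0% lower of all genes. In MOLM-13 these shares were 10.6% higher and 31.2% lower. A count with a library left out cannot be held against these shares, because the counts over all genes moved as well. The fit pools the spread of both lines, so leaving out either MOLM-13 shALKBH5 library also raised counts in NOMO-1, to 6 higher and 2 lower for the delivery genes, 3 higher for the adaptors, 12 higher and 5 lower for the downstream genes, 8 higher and 1 lower for the inhibitors and 8 higher and 2 lower for the response genes described next.

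**Figure D5:**
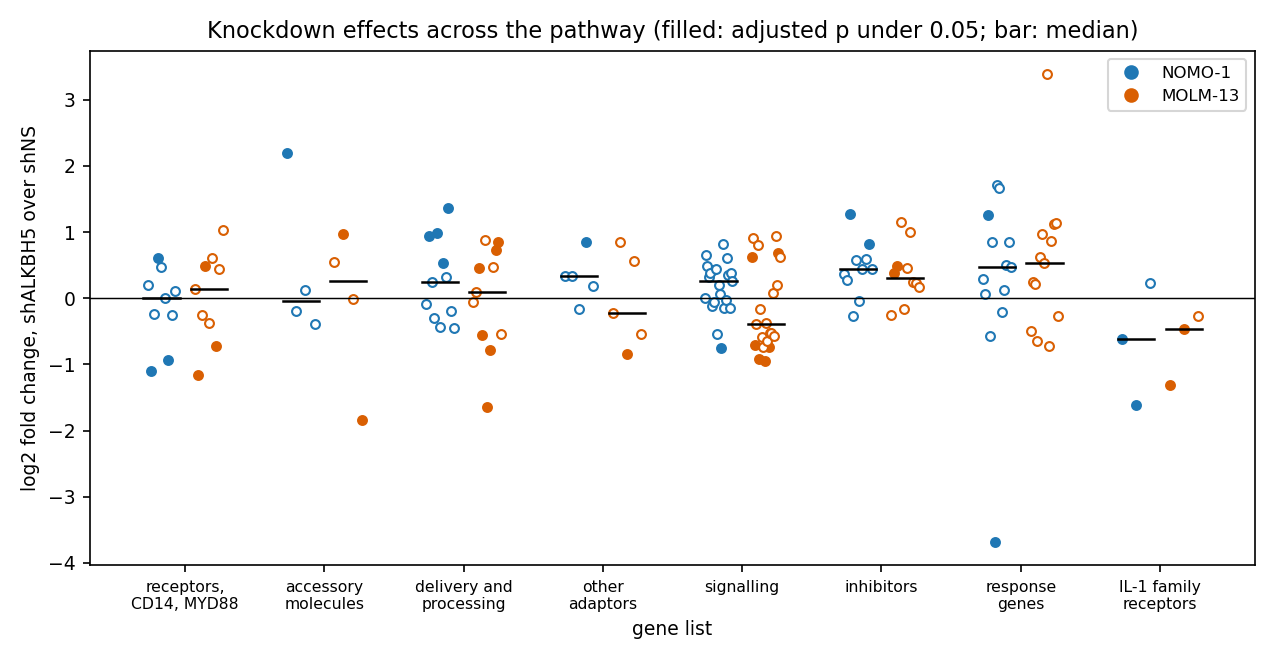
Log2 fold change of TPM + 1, shALKBH5 over shNS, of each tested gene in 8 lists of the pathway, blue for NOMO-1 and orange for MOLM-13. Filled points passed an adjusted p of 0.05 and black bars are medians. CCL2 at -3.68 among the response genes and LY96 at 2.19 among the accessory molecules are the outlying NOMO-1 points.

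Among accessory molecules (4 of 5 tested), 1 rose in NOMO-1, and 1 rose and 1 fell in MOLM-13 (2 lower without shALKBH5 replicate 1 and 2 higher without replicate 3). LY96, also called MD-2, the chain with which TLR4 binds lipopolysaccharide, stood at 2.87 and 2.3 TPM in NOMO-1 shNS and rose to 18.6 and 12.6 TPM (log2 fold change 2.19, SE 0.42, adjusted p = 0.00762). CD180, a TLR4-like surface protein, rose in MOLM-13 from 14.2 and 14.8 to 32.9 and 26.4 TPM (log2 fold change 0.97, adjusted p = 0.00258). CD36, a scavenger receptor that works with TLR2, fell in MOLM-13 from 39.9 and 38.4 to 17.6 and 5.8 TPM (log2 fold change -1.84, adjusted p = 0.015). Without shALKBH5 replicate 3 the CD36 change was -1.11 and without replicate 1 it was -2.56, and the call was lost in 3 of 17 alternatives. TLR4 itself was not called in NOMO-1, as given above.

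Of 11 tested chaperones, transporters and proteases that deliver and process the receptors, 4 rose and 0 fell in NOMO-1 (5 and 1 at an unadjusted p under 0.05), and 3 rose and 3 fell in MOLM-13 (5 lower without shALKBH5 replicate 1 and 5 higher without replicate 3). HSP90B1, the chaperone gp96 that folds most Toll-like receptors, rose in NOMO-1 from 692 and 691 to 1219 and 1458 TPM (log2 fold change 0.95, SE 0.13, adjusted p = 0.00205). CTSK, a protease that can cleave endosomal receptors, rose there from 4.14 and 2.86 to 9.8 and 11.2 TPM (log2 fold change 1.37, adjusted p = 0.00416). SLC15A4, an endosomal transporter needed for endosomal receptor signalling, rose from 23.2 and 22.2 to 44.9 and 46.6 TPM (0.98, adjusted p = 0.0359), a call lost in 7 of 16 alternatives. In MOLM-13 TMED7, a cargo protein that carries TLR4 to the surface, fell from 31.5 and 28.7 to 10.7 and 7.52 TPM (log2 fold change -1.64, SE 0.16, adjusted p = 0.00084). AP3B1, a subunit of the adaptor complex that sorts endosomal receptors, fell from 76.7 and 71.6 to 51.3 and 35.4 TPM (log2 fold change -0.78, adjusted p = 0.0143, and -0.52 without replicate 3, -1.05 without replicate 1). CNPY3, a co-chaperone of gp96, rose there from 55.9 and 56.0 to 77.1 and 76.8 TPM (0.45, adjusted p = 0.00663).

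Of 5 adaptors other than MYD88, 1 rose in NOMO-1 and 1 fell in MOLM-13 (3 lower without shALKBH5 replicate 1 and 2 higher without replicate 3). SARM1, an adaptor that restrains TICAM1 signalling, rose in NOMO-1 from 1.38 and 1.17 to 3.17 and 3.01 TPM (log2 fold change 0.85, SE 0.26, adjusted p = 0.0413), a call lost in 10 of 15 alternatives. TICAM2, which bridges TLR4 to TICAM1, fell in MOLM-13 from 1.57 and 1.31 to 0.53 and 0.2 TPM (-0.85, SE 0.17, adjusted p = 0.0106).

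Of 21 tested kinases, ubiquitin ligases and transcription factors downstream, 1 rose and 1 fell in NOMO-1, and 2 rose and 4 fell in MOLM-13. The MOLM-13 counts were 3 higher and 13 lower without shALKBH5 replicate 1 and 8 higher and 7 lower without replicate 3, and 0 were lower with that line fitted alone or without shNS replicate 1. PELI2, a ubiquitin ligase that acts on IRAK kinases, fell in NOMO-1 from 12.4 and 14.7 to 7.04 and 8.15 TPM (log2 fold change -0.76, adjusted p = 0.0119) and in MOLM-13 from 15.6 and 15.8 to 10.5 and 7.74 TPM (-0.74, adjusted p = 0.0141). IRAK1, the kinase recruited by MYD88, rose in MOLM-13 from 71.8 and 75.5 to 113 and 115 TPM (0.62, SE 0.08, adjusted p = 0.00197), and MAP3K7, the kinase TAK1, fell there from 47.1 and 46.9 to 29.4 and 20.4 TPM (-0.91, adjusted p = 0.00676). TAB1, a partner of MAP3K7, rose in NOMO-1 from 8.65 and 9.44 to 12.96 and 12.0 TPM (0.43, adjusted p = 0.0272), a call lost in 8 of 16 alternatives.

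Of 10 inhibitors of the pathway, 2 rose and 0 fell in each line (3 and 2 higher, and 0 and 0 lower, at an unadjusted p under 0.05 in NOMO-1 and MOLM-13). In MOLM-13 it was 1 higher and 4 lower without shALKBH5 replicate 1, and 9 higher and 0 lower without replicate 3. TOLLIP, which restrains IRAK1, rose in NOMO-1 from 18.9 and 18.2 to 48.0 and 44.6 TPM (log2 fold change 1.27, SE 0.12, adjusted p = 0.000682) and in MOLM-13 from 22.8 and 24.8 to 36.9 and 31.0 TPM (0.49, adjusted p = 0.0175). RNF216, a ubiquitin ligase that marks receptors for breakdown, rose in NOMO-1 from 39.3 and 37.2 to 68.5 and 67.5 TPM (0.82, adjusted p = 0.00501). SIGIRR, a decoy-like receptor of the family, rose in MOLM-13 from 6.78 and 6.08 to 9.25 and 8.07 TPM (0.38, adjusted p = 0.0446), a call lost in 9 of 17 alternatives, with an adjusted p of 0.0532 without shALKBH5 replicate 1.

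Of 13 tested genes that the pathway induces in monocytes, 1 rose and 1 fell in NOMO-1, and in MOLM-13 limma called 0 (0 at an unadjusted p under 0.05), with 12 higher without shALKBH5 replicate 3 and 8 lower without replicate 1. CCL2, a monocyte-attracting chemokine, fell in NOMO-1 from 45.9 and 47.7 to 2.51 and 2.97 TPM (log2 fold change -3.68, SE 0.53, adjusted p = 0.00259). IL10, an anti-inflammatory cytokine, rose there from 0.65 and 0.49 to 2.77 and 2.69 TPM (1.25, SE 0.13, adjusted p = 0.00103).

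The interleukin 1 family receptors, which also signal through MYD88, had 3 of 5 members tested, and 2 fell in each line (in MOLM-13, 3 without shALKBH5 replicate 1 and 1 without replicate 3). IL18R1, a chain of the interleukin 18 receptor, fell in NOMO-1 from 13.4 and 12.7 to 3.19 and 3.98 TPM (log2 fold change -1.62, SE 0.14, adjusted p = 0.000626). In MOLM-13 it was under 1 TPM throughout (-0.46, adjusted p = 0.0427), a call lost in 9 of 17 alternatives, with an adjusted p of 0.089 without shALKBH5 replicate 3. IL1RAP, the co-receptor chain of the family, fell in NOMO-1 from 22.3 and 20.7 to 12.5 and 14.8 TPM (-0.62, adjusted p = 0.033, lost in 7 of 16 alternatives) and in MOLM-13 from 22.9 and 24.9 to 10.9 and 7.45 TPM (-1.31, SE 0.18, adjusted p = 0.00263).

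Genes whose levels followed a member most closely over the 8 libraries were read from Pearson's r of log2(TPM + 1) among genes tested with a mean of at least 5 TPM, as a description that the groups and lines shared by all genes enter. For CD14 they were RGS1 (r = 0.996), IFNGR2 and IL1RN, and RGS1 was listed at 0 in the NOMO-1 libraries and stood at 7.79, 6.59, 64.6 and 0.95 TPM in MOLM-13 shNS replicates 1 and 3 and shALKBH5 replicates 1 and 3. For MYD88 they were NFKBIE (r = 0.99), SLC45A3 and IL4I1, and NFKBIE went from 7.85 and 8.18 TPM in MOLM-13 shNS to 50.9 and 10.3 TPM. For TLR4 they were TLE3 (r = 0.999), ZNF280C and PTMS, which follow the gap between the lines, and for TLR2 they were FAS (r = 0.993), SOBP and NOB1. FAS stood at 2.93 and 3.49 TPM in NOMO-1 shNS against 1.52 and 1.82 TPM in shALKBH5, and at 15.3 and 14.8 TPM in MOLM-13 shNS against 9.35 and 5.46 TPM, the order of groups that TLR2 had.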

How the data were processed

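The authors deposited a table of TPM for 26830 gene symbols and 8 libraries, and the deposited TPM of each library sum to 1000000. The tools STAR and RSEM and the build GRCh38 are named per the submitters' processing notes. The version of each tool, the annotation and the strand setting were not given in the sources used here. Library depth is unknown, because TPM does not keep it, and counting intervals are left out. As TPM is a share, abundant transcripts lower all other values of a library.

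The 14302 genes that reached 1 TPM in 2 or more libraries were fitted with limma 3.58.1 in R 4.3.3 on log2(TPM + 1), using 4 group means, an intensity trend, two-sided tests and Benjamini-Hochberg adjustment over all genes tested. The fit had 4 residual and 2.29 prior degrees of freedom. A fold change on this scale understates changes of low genes. Groups share 1 estimate of spread per gene, and the MOLM-13 shALKBH5 libraries differed most. There were 4 comparisons: the knockdown within each line, the difference of these effects, and the controls of the lines. The fit was tested on simulated data.

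The members and gene lists were chosen with earlier results of these data known, so no test over a list was made and no p was adjusted over one. Named were ALKBH5, the members, TLR3 and TLR10, IFIT1 and ISG15, up to 3 genes of smallest p among those past the threshold per list and line, and the 3 genes most like CD14, MYD88, TLR4 and TLR2. Marker genes and TLR8-AS1 are given beside results. IRF7, TNF and LILRA4 are not analysed here. Coordinates are from GENCODE 29 (GRCh38) and promoters from RefSeq (GRCh38.p14). Alternatives were pseudocounts of 0.1 and 0.5, no filter, a filter of 5 TPM, median-of-ratios and quantile scaling, no trend, each line alone, a replicate block in MOLM-13, and leaving out each library.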

Additional observations from a re-analysis of the deposited data

Results flagged for a closer look

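For no member did the difference of the knockdown effects pass the threshold, but 11 other genes of the pathway named above did, by limma's test of the difference of log2 fold changes (NOMO-1 minus MOLM-13), where 29.7% of all genes tested were higher and 4.9% lower. These 11 were named for passing a knockdown comparison in these data, so their count cannot be held against those shares. IRAK4 and TAB3, signalling genes not named above, also passed limma's test of the difference (adjusted p = 0.0257 and 0.0482). Higher in NOMO-1 were HSP90B1 by 0.85 (SE 0.18, adjusted p = 0.0165), TMED7 by 1.21 (adjusted p = 0.0116), AP3B1 by 1.32 (adjusted p = 0.0119), TAB1 by 0.58 (adjusted p = 0.0382), MAP3K7 by 0.79 (adjusted p = 0.0423), TOLLIP by 0.78 (adjusted p = 0.0166) and IL10 by 1.04 (adjusted p = 0.0111). Lower in NOMO-1 were CCL2 at -4.65 (SE 0.75, adjusted p = 0.00759), CD180 at -1.17 (adjusted p = 0.0076), IL18R1 at -1.15 (adjusted p = 0.00994) and IRAK1 at -0.62 (adjusted p = 0.0107). AP3B1 rose by 0.53 in NOMO-1 and fell by 0.78 in MOLM-13, and its rise in NOMO-1 was lost in 10 of 16 alternatives. The median difference over all genes was 0.42, and with median-of-ratios scaling -0.01. Of these 11, the differences of CD180 and CCL2 kept their side of the threshold in all 16 alternatives run, while those of TAB1, TOLLIP, MAP3K7 and HSP90B1 lost it in 9, 8, 7 and 6 of 16, those of TMED7, AP3B1 and IRAK1 in 4 of 16 each, that of IL10 in 3 of 15 and that of IL18R1 in 1 of 16.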

How the results depend on the processing

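Of 573 values of single members under alternatives, 523 kept their direction or were not called and stayed on their side of the threshold, 19 lost the call, 27 gained it and 4 reversed. Without MOLM-13 shALKBH5 replicate 1, the MOLM-13 changes of TLR1, CD14 and IFIT1 reversed to -0.78, -1.12 and -0.99, and the differences between lines of CD14 and IFIT1 to 0.87 and 1.16, while those of TLR1 and SLC15A4 were 0.98 and 0.60. Without its replicate 3, the differences of TLR1 and SLC15A4 reversed to -0.84 and -0.40, those of CD14 and IFIT1 were -2.26 and -4.57, and the MOLM-13 changes of TLR1, CD14 and IFIT1 were 1.04, 2.01 and 4.74. Median-of-ratios scaling reversed the difference of ALKBH5 to -0.33 and moved the medians over all genes from 0.16 and -0.18 to 0.0 and 0.03 in NOMO-1 and MOLM-13. The cause was not tested.

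The NOMO-1 count of members higher (1) was 0 with the 5 TPM filter or quantile scaling, 2 with the line alone and 1 to 2 when a library was left out. That of members lower (2) was 1 with the 5 TPM filter or no filter, 4 with the line alone and 0 to 3 when a library was left out. In MOLM-13 the count higher (1) was 0 with the 5 TPM filter, 2 with either scaling and 0 to 5 when a library was left out, and that lower (2) was 1 with the 5 TPM filter, no filter or the line alone and 0 to 6 when a library was left out. For the difference (0 and 0) leaving out a library gave 0 to 3 higher and 0 to 4 lower. Between controls the count higher (2) was 1 with the 5 TPM filter, which leaves fewer members tested, and 2 to 3 when a library was left out.

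Over all genes, the NOMO-1 calls were 4097 higher (2313 to 6229 over alternatives) and 2145 lower (1168 to 3716), the MOLM-13 calls 1513 higher (384 to 3454) and 4459 lower (1300 to 7435), the differences 4245 higher (1437 to 8417) and 701 lower (198 to 2450), and those between controls 5812 higher (4456 to 7397) and 2744 lower (2023 to 4535). Of the pathway lists, signalling genes higher in NOMO-1 ran from 0 to 12 around 1 and inhibitors higher in MOLM-13 from 0 to 9 around 2.

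MOLM-13 groups share replicate numbers 1 and 3, which the labels do not say mark a shared culture, and the deviations of same-numbered libraries correlated at 0.13. With the replicate block in MOLM-13 the changes of TLR2, TLR5 and TLR9 had adjusted p-values of 0.0156, 0.029 and 0.028, CD14 between controls passed (-2.43, adjusted p = 0.0389), and no other call on a member changed. No paired analysis was possible in NOMO-1 because its groups share only the number 3. Depth is unknown, so values under 1 TPM (TLR5 in MOLM-13, TLR6 and CD14 in NOMO-1, TLR7) have an unknown counting error.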
